A study of Mus musculus with 8 samples.

Results

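The neuregulin and ERBB genes are 4 receptors (Erbb2, Erbb3, Erbb4 and Egfr) and 4 ligands (Nrg1, Nrg2, Nrg4 and Hbegf) of one growth factor system, followed here in neonatal mouse hearts. They were found by gene symbol, without regard to case, among the 80155 loci measured in every heart, of which 39614 carry a symbol. All 8 genes matched exactly 1 locus each, and 7 of them reached 1 FPKM in at least 1 heart. FPKM is a count of sequenced fragments divided by the length of the transcript and by the mapped reads of the library. Levels of different genes can therefore be compared roughly on this scale. Base composition and overlapping transcripts, described below, limit such comparisons.

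RNA-seq was carried out on hearts of male Hsd:ICR(CD-1) mice, 4 at postnatal day 1 (P1) and 4 at postnatal day 7 (P7), with 1 heart per library. This is an outbred stock, and the mice carried no named allele and received no named treatment. The same protocol is described for both stages, but whether they were processed together is not stated. A technical difference between the stages could therefore not be told apart from age. The atrial appendages were taken off and the rest of the heart was homogenized whole, so ventricular muscle, vessels, connective tissue and nerves are mixed in each value. The comparison asks how the RNA of the heart differs between the first day and the first week after birth, the days over which the mouse heart loses its capacity to regenerate.

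Neuregulins and heparin-binding EGF-like growth factor are made as membrane proteins whose EGF-like domain is released by proteases and binds ERBB receptors on nearby cells. In the heart, NRG1 from endothelial and endocardial cells acts on ERBB4 of cardiomyocytes, which pairs with ERBB2, a receptor with no known ligand of its own. The pair activates the RAS to ERK and the PI3K to AKT routes, and it is known for its need in trabeculation of the embryonic heart and for its effect on cardiomyocyte division around birth.

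None of the 7 genes tested was called as differentially expressed between P1 and P7. Nrg2 was not tested in this fit, and a missing call does not show that a gene was unchanged. A locus was called when the adjusted p of limma (a linear model fitted over the 43172 loci that reached 1 FPKM in any heart, Benjamini-Hochberg adjustment) was under 0.05 and the mean FPKM differed by a factor of at least 1.5. Of the 7 genes tested, 0 were called and 0 had an unadjusted p under 0.05, the smallest being 0.0992 for Erbb2. Among all annotated loci tested, 8.14% were called, 7.74% as higher in P7 and 0.401% as lower. The median log2 fold change of the 7 genes was 0.22, beside 0.19 over the annotated loci tested. Their 95% intervals reached from a fold of 0.688 to a fold of 1.88 in FPKM + 1, the scale of the fit. In FPKM itself the same intervals are wider, most of all for weakly expressed genes. Erbb4 was the most abundant of the 8 genes at both stages, and Nrg2 the least.

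Markers fixed for each cell type were used to check the tissue. All 8 cardiomyocyte markers exceeded 1 FPKM in every heart, with a geometric mean (of FPKM + 0.1) of 848 to 1708 FPKM at P1 and 1223 to 1923 at P7. All 8 endothelial and endocardial markers, the source cells of NRG1, and all 8 fibroblast markers also exceeded 1 FPKM in every heart. Of 8 Schwann cell markers, 5 reached 1 FPKM in a heart and 2 did so in every heart. The 4 atrial genes had geometric means of 819 to 1046 FPKM at P1 and 854 to 1210 at P7 although the appendages had been removed. Of the smooth muscle and pericyte markers 2 of 8, and of the leukocyte markers 1 of 7, were called as higher in P7. No marker of any list was at 0 in every heart. In homogenized tissue, fewer cells of a type and less RNA per cell cannot be told apart.

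P1 replicate 4 stood apart from the other P1 hearts for most of these genes. It held the highest P1 value of 7 of the 8 genes, all but Nrg2, for which it was the lowest. At P7, replicate 1 held the highest value of 5 genes and replicate 2 the lowest value of 7. The median ratio of a heart's annotated loci to their geometric mean over the hearts was 0.801 to 0.952 in P1 replicates 1 to 3, 1.16 in P1 replicate 4, and 0.942 to 1.27 at P7, highest in replicate 3. In P1 replicate 4 this scale was thus high together with 7 of the 8 genes, and its part in their levels was not tested.

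**Figure D1:**
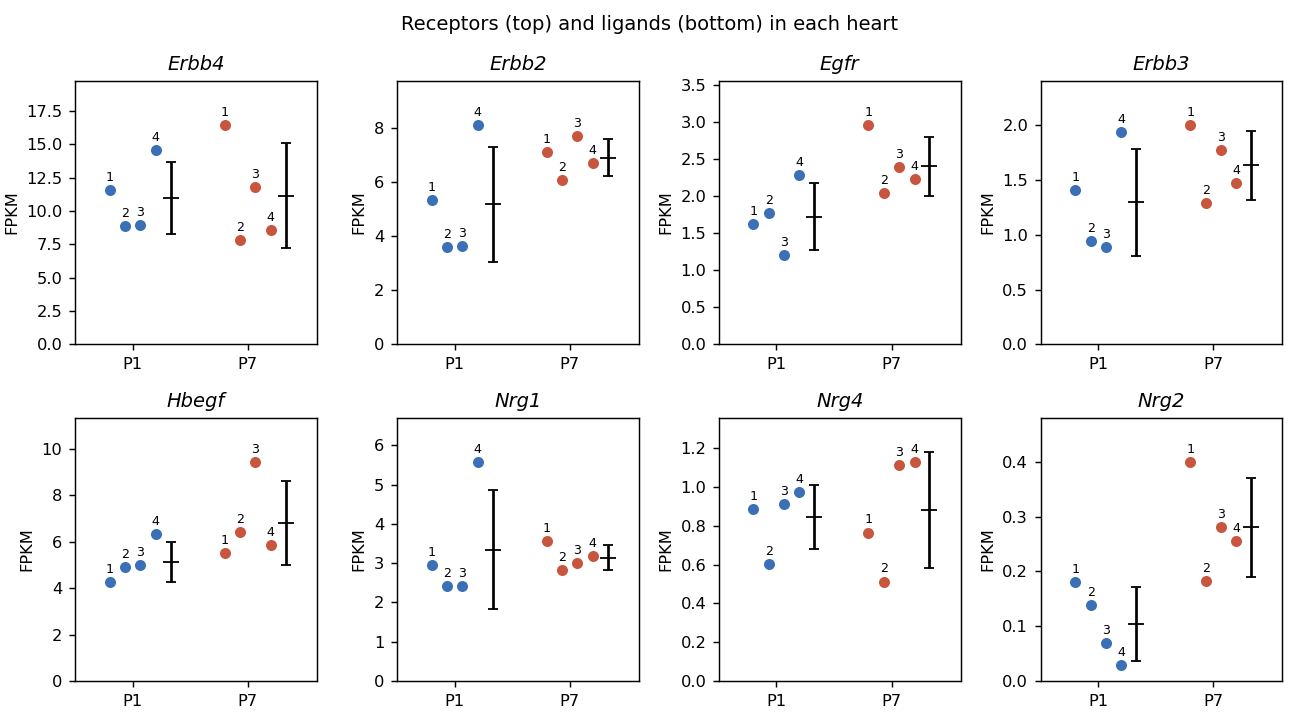
FPKM (vertical axis, from 0) of the 4 receptors in the upper row and the 4 ligands in the lower row, with 1 point per heart, its replicate number above it, and the mean and SD of the 4 hearts of each stage as a bar beside the points. P1 replicate 4 is the highest P1 heart in every panel but that of Nrg2, the only panel in which all P7 hearts lie above all P1 hearts.

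The receptors are close relatives, so the counting of reads between them bears on each of their values. The kinase domain is the part in which they are most alike, and the stretch from its catalytic loop to the start of its activation segment is given here for each receptor, as coding strand of GRCm38 within exon 21 of the longest coding transcript of GENCODE M21. Capitals mark the codons of the HRD motif of the catalytic loop and of the DFG motif that binds the metal ion.
Erbb4: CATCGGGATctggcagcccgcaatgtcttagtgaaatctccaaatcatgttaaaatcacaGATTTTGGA
Erbb2: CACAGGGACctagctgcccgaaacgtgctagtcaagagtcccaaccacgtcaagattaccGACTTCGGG
Egfr: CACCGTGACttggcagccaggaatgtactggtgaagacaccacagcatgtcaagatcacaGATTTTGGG
Erbb3: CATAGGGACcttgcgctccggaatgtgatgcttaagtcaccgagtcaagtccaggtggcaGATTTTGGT

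The stretch of Erbb4 lies at chr1:68080694-68080762 on the minus strand, that of Erbb2 at chr11:98434247-98434315 on the plus strand, that of Egfr at chr11:16904338-16904406 on the plus strand and that of Erbb3 at chr10:128572488-128572556 on the minus strand. Of the 69 bases, Erbb4 shared 52 with Egfr (75.4%), 46 with Erbb2 (66.7%) and 45 with Erbb3 (65.2%), and the lowest identity of any pair was 62.3%, between Erbb2 and Erbb3. Over the whole coding sequences the longest identical run was 22 bases, between Erbb4 and Erbb2, and in the other pairs it was 14 to 20 bases. These runs are much shorter than a sequenced read.

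Erbb4, the receptor that binds neuregulins in cardiomyocytes and has an active kinase, is on the minus strand of chromosome 1 of GRCm38, from 68031786 to 69108059. Its FPKM was 11.6, 8.84, 8.92 and 14.6 in P1 replicates 1 to 4 and 16.5, 7.83, 11.8 and 8.54 in P7 replicates 1 to 4. The highest and the lowest heart were both P7 hearts, and the stages overlapped throughout. The means were 11.0 ± 2.7 (SD, n = 4) and 11.1 ± 3.9 (SD, n = 4), and the log2 fold change of P7 over P1 was -0.01 (SE 0.25, 95% interval -0.54 to 0.53, limma adjusted p = 0.990). Its sign depended on the scaling, with -0.23 under median-ratio scaling and 0.28 after a correction for GC content. Erbb4 ranked above 83.2% of the annotated loci with a mean above 0 at P1. At P7 it ranked above 78.7% of those with a mean above 0 at P7, a different set, so these shares are not directly comparable. The same span holds Gm16076, a transcript annotated inside an Erbb4 intron on the same strand, at 14.4 to 24.4 FPKM in P1 and 16.8 to 20.4 in P7, and reads of both cannot be separated with certainty.

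Erbb2, the coreceptor of ERBB4 and ERBB3, lies on the plus strand of chromosome 11, from 98412470 to 98439046. Its FPKM was 5.35, 3.59, 3.65 and 8.13 in the P1 hearts and 7.14, 6.07, 7.71 and 6.71 in the P7 hearts. All 4 P7 hearts were above the other 3 P1 hearts but below P1 replicate 4. The P1 mean was 5.18 ± 2.13 and the P7 mean 6.91 ± 0.69 (SD over 4 hearts), which gave a log2 fold change of 0.41 (SE 0.23, 95% interval -0.09 to 0.91, limma adjusted p = 0.355). On the log2(FPKM + 1) scale of this fit it was the largest change of the 7 tested genes, while the ratio of means was 1.40 for Egfr and 1.33 for Erbb2. Without P1 replicate 4 it was 0.62 with an adjusted p of 0.0647, the smallest that any tested gene of the 8 reached under any alternative, and after GC correction it was 0.04. The overlapping span on the other strand holds Mien1, at 8.57 to 12.4 FPKM in P1 and 13.4 to 18.4 in P7. The strand used in counting is not given in the sources used here, so reads of Erbb2 and Mien1 where they overlap could be shared. Gm12352, on the same strand as Erbb2 in this span, had 0.883 to 2.80 FPKM in P1 and 2.18 to 2.90 in P7.

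Egfr, the receptor of EGF and of HB-EGF, lies on the plus strand of chromosome 11, from 16752203 to 16918158. Its FPKM was 1.62, 1.77, 1.20 and 2.29 in the P1 hearts and 2.96, 2.04, 2.39 and 2.23 in the P7 hearts. All 4 P7 hearts were above the P1 mean, and 2 of them were above P1 replicate 4. The P1 mean was 1.72 ± 0.45 and the P7 mean 2.40 ± 0.40 (SD over 4 hearts), which gave a log2 fold change of 0.33 (SE 0.19, 95% interval -0.08 to 0.75, limma adjusted p = 0.368). The same span holds E230015J15Rik, whose more abundant locus had 0.324 to 0.992 FPKM in P1 and 0.799 to 2.03 in P7. Reads of Egfr and E230015J15Rik where they overlap could be shared.

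Erbb3, which binds neuregulins but has a weak kinase and signals through its partner, lies on the minus strand of chromosome 10, from 128567523 to 128589652. Its FPKM was 1.41, 0.945, 0.890 and 1.94 in the P1 hearts and 2.00, 1.29, 1.77 and 1.48 in the P7 hearts. Only P7 replicate 1 was above P1 replicate 4. The P1 mean was 1.30 ± 0.49 and the P7 mean 1.64 ± 0.31 (SD over 4 hearts), which gave a log2 fold change of 0.22 (SE 0.20, 95% interval -0.22 to 0.66, limma adjusted p = 0.538).

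Hbegf encodes HB-EGF, a ligand of EGFR and ERBB4, and lies on the minus strand of chromosome 18, from 36504650 to 36515805. Its FPKM was 4.28, 4.89, 5.0 and 6.33 in the P1 hearts and 5.52, 6.40, 9.45 and 5.86 in the P7 hearts. The stages overlapped, since P1 replicate 4 was above P7 replicates 1 and 4. The P1 mean was 5.13 ± 0.86 and the P7 mean 6.81 ± 1.80 (SD over 4 hearts), which gave a log2 fold change of 0.34 (SE 0.20, 95% interval -0.10 to 0.77, limma adjusted p = 0.385). It was the most abundant ligand in all 8 hearts.

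Nrg1 was measured over a locus on the minus strand of chromosome 8, from 31812136 to 32015759. The gene in GENCODE M21 reaches from 31814551 to 32884029, and 16 of its 18 transcripts start within the locus and 2 start outside it. Its FPKM was 2.94, 2.41, 2.41 and 5.58 in the P1 hearts and 3.57, 2.81, 3.01 and 3.17 in the P7 hearts. P1 replicate 4 was above all other hearts, and P7 replicate 1 was the next. The means were 3.34 ± 1.52 and 3.14 ± 0.32 (SD over 4 hearts), and the log2 fold change was -0.01 (SE 0.23, 95% interval -0.51 to 0.48, limma adjusted p = 0.976). Without P1 replicate 4 it was 0.21, under median-ratio scaling -0.19 and after GC correction 0.24, so its sign depended on 1 heart and on the scaling.

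Nrg4, a ligand of ERBB4 known as a factor secreted by fat, lies on the minus strand of chromosome 9, from 55208925 to 55326844. Its FPKM was 0.887, 0.604, 0.913 and 0.975 in the P1 hearts and 0.766, 0.513, 1.12 and 1.13 in the P7 hearts. P7 replicates 1 and 2 were below the P1 mean and replicates 3 and 4 were above every P1 heart. The log2 fold change was 0.02 (SE 0.20, 95% interval -0.41 to 0.44, limma adjusted p = 0.960), and -0.10 under median-ratio scaling. Fbxo22, on the other strand of the same span, had 11.0 to 17.3 FPKM at P1 and 10.2 to 17.5 at P7, far above Nrg4. The strand used in counting is not given, so reads of Nrg4 and Fbxo22 where they overlap could be shared.

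Nrg2, a ligand of ERBB3 and ERBB4, lies on the minus strand of chromosome 18, from 36017695 to 36197380. Its FPKM was 0.18, 0.139, 0.0699 and 0.0291 in the P1 hearts and 0.401, 0.183, 0.282 and 0.256 in the P7 hearts. The stages did not overlap, with all P7 hearts above all P1 hearts, although P7 replicate 2 exceeded P1 replicate 1 by little. The means were 0.104 ± 0.068 and 0.281 ± 0.090 (SD over 4 hearts). Nrg2 stayed under 1 FPKM in all hearts and was therefore not among the tested loci. When all loci were tested, its log2 fold change was 0.21 with a limma adjusted p of 0.317. That value was computed after adding 1 to each FPKM, which strongly shrinks changes of genes at such low levels. In FPKM itself, the ratio of the P7 mean to the P1 mean was 2.69. Of the 13925 annotated loci that were above 0 but under 1 FPKM in all hearts, 1.24% also had all P7 hearts above all P1 hearts, and of the annotated loci tested, 17.3% did. None of the 7 tested genes showed such a separation.

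**Figure D2:**
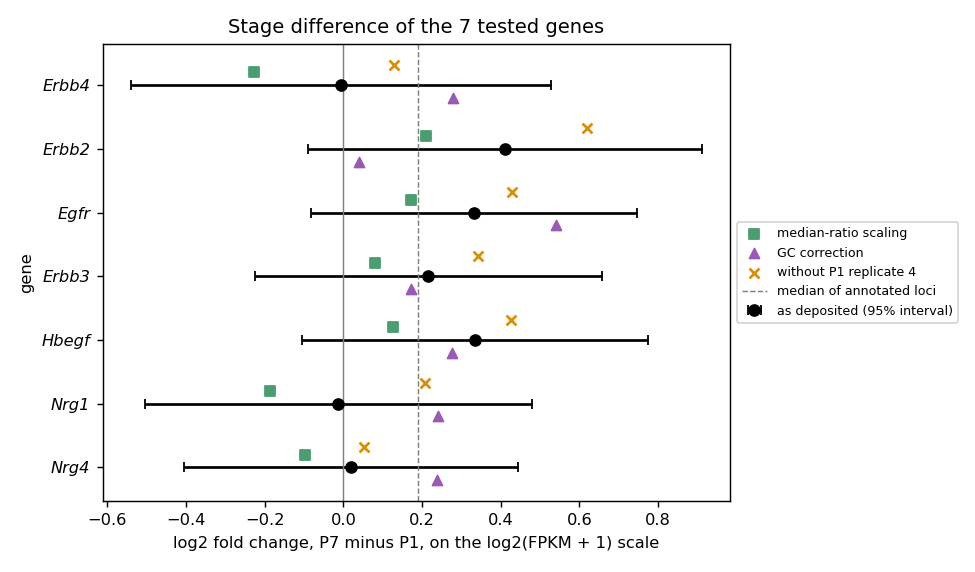
Log2 fold change of P7 over P1 (horizontal axis, on the log2(FPKM + 1) scale) for the 7 tested genes, with the 95% interval of limma on the deposited values and the values after median-ratio scaling, after GC correction and without P1 replicate 4. All intervals include 0, and the values of Erbb4, Nrg1 and Nrg4 lie on both sides of 0.

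The order of the levels was nearly the same in every heart. Averaged over the 8 hearts, Erbb4 came first with 11.1 FPKM, followed by Erbb2 with 6.04, Hbegf with 5.97, Nrg1 with 3.24, Egfr with 2.06, Erbb3 with 1.47, Nrg4 with 0.863 and Nrg2 with 0.193. Erbb4 exceeded Erbb2 in 8 of 8 hearts, by a factor of 1.27 to 2.46, and their ranges did not overlap at either stage. Erbb2 and Hbegf could not be ordered, since Erbb2 was the higher in 4 of 8 hearts. Hbegf exceeded Nrg1, Nrg1 exceeded Egfr, Egfr exceeded Erbb3 and Nrg4 exceeded Nrg2 in all 8 hearts. Erbb3 exceeded Nrg4 in 7 of 8 hearts. Among these neighbours the ranges over hearts overlapped at P1 for Hbegf and Nrg1, for Egfr and Erbb3 and for Erbb3 and Nrg4, and at P7 for Nrg1 and Egfr.

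Erbb4 made up 57.8% ± 2.8 (SD, n = 4) of the summed FPKM of the 4 receptors at P1 and 49.5% ± 5.8 at P7. Erbb2 made up 26.4% ± 2.8 and 32.1% ± 4.9, Egfr 9.13% ± 1.72 and 11.0% ± 0.9, and Erbb3 6.64% ± 0.57 and 7.45% ± 0.32. Of the summed ligand FPKM, Hbegf made up 55.2% ± 5.8 at P1 and 60.7% ± 6.8 at P7, Nrg1 34.4% ± 6.6 and 28.8% ± 5.4, Nrg4 9.16% ± 1.88 and 7.89% ± 2.34, and Nrg2 1.24% ± 0.88 and 2.56% ± 0.93. The sum of the receptors was 14.7 to 26.9 FPKM at P1 and 17.2 to 28.6 at P7, and that of the ligands 8.05 to 12.9 and 9.91 to 13.9.

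A ratio within a heart does not depend on the scaling of that library. Therefore 7 ratios of 2 genes and 6 ratios of a gene to the geometric mean of a marker list were compared between stages with an exact two-sided permutation test over hearts, whose smallest possible p is 0.0286, and with Benjamini-Hochberg adjustment over the 13. No ratio passed the adjustment, which with this smallest p would have needed 8 of the 13 ratios to reach it. The ratio of the neuregulin Nrg1 to the coreceptor Erbb2 was 0.558, 0.681, 0.670 and 0.691 in the P1 hearts and 0.507, 0.472, 0.399 and 0.480 in the P7 hearts. All 4 P7 hearts were below all 4 P1 hearts, with a difference of -0.49 on the log2 scale (exact p = 0.0286, adjusted p = 0.124). With a pseudocount of 1 it was -0.42, and a GC correction on that scale turned it to 0.20 (exact p = 0.0857). GC content was 42.7% for the longest transcript of Nrg1 and 57.3% for that of Erbb2.

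Erbb2 and Egfr were also set against Erbb4. Erbb2 to Erbb4 was 0.467, 0.413, 0.416 and 0.561 in the P1 hearts and 0.437, 0.778, 0.657 and 0.788 in the P7 hearts. P7 replicates 2 to 4 were above every P1 heart and P7 replicate 1 lay among the P1 hearts, a log2 difference of 0.49 (exact p = 0.0857, adjusted p = 0.223). With a pseudocount of 1 this difference was 0.42, and a GC correction on that scale turned it to -0.24 (exact p = 0.171). GC content was 40.6% for the longest transcript of Erbb4. Egfr to Erbb4 was 0.147, 0.209, 0.144 and 0.163 in the P1 hearts and 0.185, 0.269, 0.210 and 0.269 in the P7 hearts, a log2 difference of 0.49 (exact p = 0.0571, adjusted p = 0.186), which was 0.34 with a pseudocount of 1 and 0.26 after a GC correction on that scale. Nrg1 to Erbb4, a ligand with its receptor, differed by 0.01 on the log2 scale (exact p = 0.971). Erbb3 to Erbb2 differed by -0.12 (exact p = 0.257), Hbegf to Egfr by -0.10 (exact p = 0.771) and Nrg4 to Nrg1 by 0.02 (exact p = 0.971). After GC correction the difference of Erbb3 to Erbb2 turned to 0.13 and that of Nrg1 to Erbb4 to -0.04.

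The receptors, Nrg1 and Hbegf were also each set against the markers of a cell type in which the gene is known. Nrg2 and Nrg4 were not. Nrg1 over the geometric mean of the endothelial and endocardial markers was 0.177, 0.164, 0.187 and 0.241 in the P1 hearts and 0.127, 0.139, 0.0975 and 0.136 in the P7 hearts. All P7 hearts were below all P1 hearts, a log2 difference of -0.62 (exact p = 0.0286, adjusted p = 0.124), which was -0.60 with a pseudocount of 1 and -0.30 after a GC correction on that scale (exact p = 0.0857). The geometric mean of those markers was 13.5 to 23.6 FPKM at P1 and 21 to 31.9 at P7, and 3 of the 8 were called as higher in P7 by limma. Hbegf over the same markers differed by -0.23 (exact p = 0.314).

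Egfr over the fibroblast markers was 0.0198, 0.0276, 0.0173 and 0.0191 in the P1 hearts and 0.0168, 0.0166, 0.0153 and 0.0158 in the P7 hearts. The stages did not overlap, with a log2 difference of -0.36 (exact p = 0.0286, adjusted p = 0.124). Without P1 replicate 2, the highest heart, it was -0.22. The difference was -0.50 with a pseudocount of 1 and -0.33 after a GC correction on that scale (exact p = 0.0571). The fibroblast markers had a geometric mean of 67.9 to 125 FPKM at P1 and 129 to 182 at P7, and 5 of the 8 were called as higher in P7. The denominators of both ratios thus moved with stage while Nrg1 and Egfr were not called, and the part of these cell types in the ratios was not tested.

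Against the cardiomyocyte markers, none of which was called, Erbb4 differed by -0.35 on the log2 scale (exact p = 0.171) and Erbb2 by 0.14 (exact p = 0.429). A GC correction turned both signs, to 0.05 for Erbb4 and to -0.19 for Erbb2. In 3 of the 4 P7 hearts Erbb4 over these markers was below every P1 heart, and in P7 replicate 1 it was above every P1 heart. Erbb3, which Schwann cells use, differed by 0.11 against the Schwann cell markers (exact p = 0.829), whose geometric mean was 0.816 to 1.14 FPKM at P1 and 0.743 to 1.46 at P7.

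**Figure D3:**
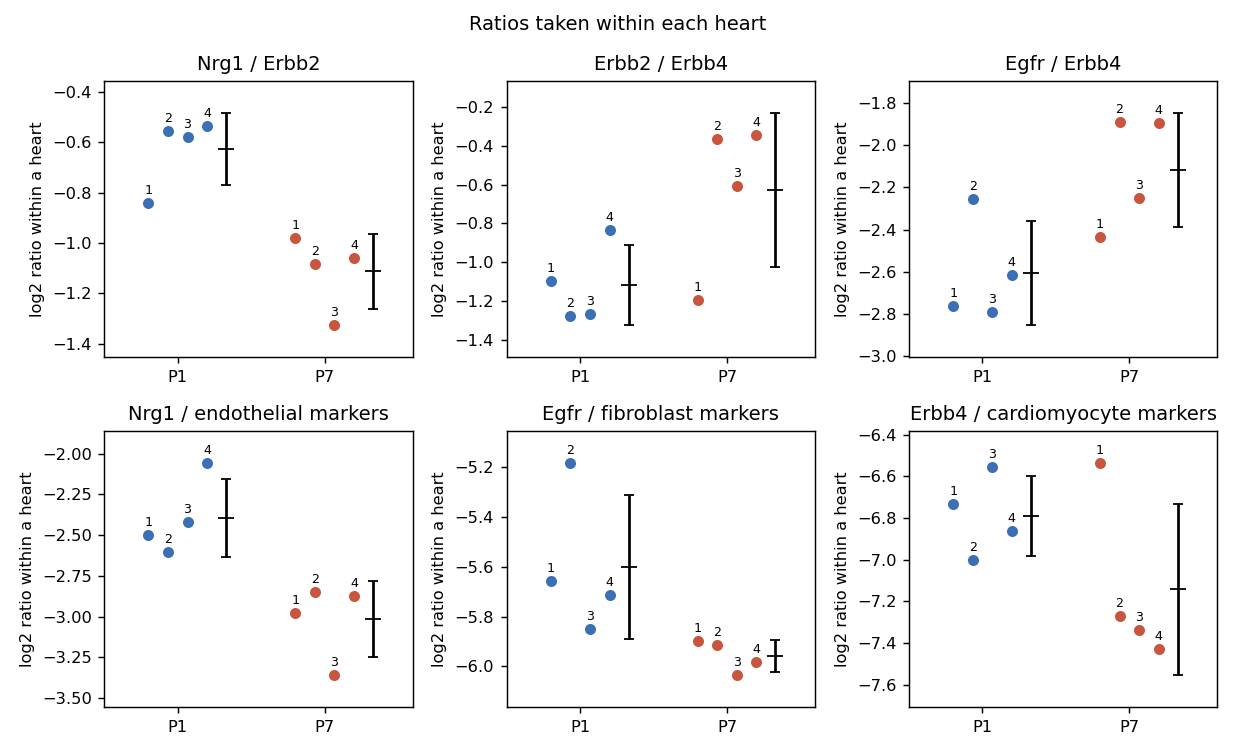
Log2 ratio within each heart (vertical axes, each with its own range) for 3 pairs of genes and for 3 genes over the geometric mean of marker genes, with 1 numbered point per heart and the mean and SD of each stage. For Nrg1 over Erbb2, Nrg1 over the endothelial markers and Egfr over the fibroblast markers, all 4 P7 hearts lie below all 4 P1 hearts.

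Around Nrg1, 25 loci without a gene symbol were listed in the same span, and 24 of them were tested. None was called by limma, the smallest unadjusted p being 0.0353 and the smallest adjusted p 0.233. Their median was 0.841, 0.729, 0.996 and 1.71 FPKM in the P1 hearts and 1.03, 0.474, 0.704 and 0.705 in the P7 hearts. As for Nrg1 itself, P1 replicate 4 was the highest, and it held the highest P1 value at 23 of the 25 loci and the highest value of all hearts at 19. Nrg1 over this median was 3.50, 3.31, 2.42 and 3.27 in the P1 hearts and 3.46, 5.94, 4.28 and 4.50 in the P7 hearts. P1 replicate 4 lay among the other P1 hearts on this ratio. The files do not say whether these loci are parts of the Nrg1 transcript or separate RNA.

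**Figure D4:**
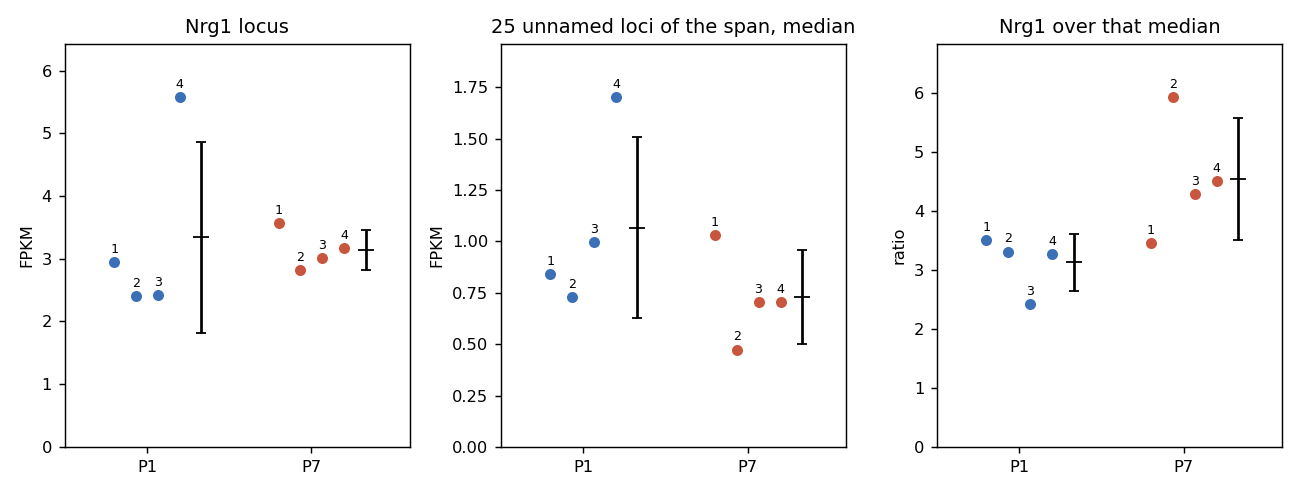
FPKM of the Nrg1 locus, the median FPKM of the 25 unnamed loci in its span, and the ratio of the first to the second (vertical axes, from 0), with 1 numbered point per heart and the mean and SD of each stage. P1 replicate 4 is the highest heart in the first and second panels and lies within the other P1 hearts in the third.

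Genes that act before and after the receptors were followed in 8 lists. Of 91 tested genes of these lists, 16 were called and all 16 were higher in P7, which is 17.6% beside 7.74% of the annotated loci tested. Their median log2 fold change was 0.22, beside 0.19 over the annotated loci. Log2 changes of genes in these lists are on the log2(FPKM + 1) scale, which understates those of weakly expressed genes. The lists were chosen with earlier results of these hearts known, and no test was made of them as lists. The called genes had a median GC content of 57.2% and the other tested genes of the lists 47.2%, and the same contrast held over all annotated loci, with 56.1% for called and 48.6% for other loci. After GC correction 2 of the 16, Jun and Ptpn18, were still called, and under median-ratio scaling 11 were. In all, 2.20% of the 91 genes were called after GC correction, beside 2.30% of the annotated loci, and 13.2% beside 11.2% under median-ratio scaling. When every heart had to reach 1 FPKM, 25.9% of 81 genes of the lists were called, beside 20.2% of the annotated loci. The count also rested on single hearts. It was 4 without P1 replicate 1, 1 without P1 replicate 2, 3 without P1 replicate 3, 24 without P1 replicate 4, 1 without P7 replicate 1, 11 without P7 replicate 2, 2 without P7 replicate 3 and 7 without P7 replicate 4. The share of annotated loci called moved over a similar range, from 0.935% without P1 replicate 2 to 16.0% without P1 replicate 4.

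Among the other ligands of the EGF family, 3 of 7 were tested and 0 were called and 0 had an unadjusted p under 0.05. Betacellulin (Btc), a ligand of EGFR and ERBB4, had 1.24 to 1.93 FPKM at P1 and 0.840 to 1.53 at P7. Egf and Tgfa, both ligands of EGFR, had log2 fold changes of 0.05 and 0.19 (limma adjusted p = 0.876 and 0.573). Areg, Ereg, Epgn and Nrg3 stayed under 1 FPKM in every heart.

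Of the 12 genes that process ligands, 3 were called. Adam19, a membrane protease that can shed neuregulin, rose from 13.3 to 25.9 FPKM over the P1 hearts to 32.2 to 53.0 over the P7 hearts, a log2 fold change of 1.02 (SE 0.24, limma adjusted p = 0.0394). The iRhom genes Rhbdf1 and Rhbdf2, whose products carry the shedding protease ADAM17 to the cell surface, rose by 0.93 and 0.96 on the log2(FPKM + 1) scale (limma adjusted p = 0.0487 and 0.0233). Mean FPKM went from 7.32 at P1 to 14.6 at P7 for Rhbdf1 and from 0.954 to 2.82 for Rhbdf2. Adam10, another sheddase, and Nrd1, a cofactor of HB-EGF shedding, had log2 fold changes of -0.09 and -0.17 and Timp3, an inhibitor of sheddases, of 0.24, and these 3 were not called.

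Of 14 tested adaptors and first relays, 3 were called. Shc1 and Shc2, adaptors that bind phosphorylated receptors, rose by 0.73 and 0.87 on the log2(FPKM + 1) scale (limma adjusted p = 0.0399 and 0.0354). Mean FPKM went from 18.1 at P1 to 30.6 at P7 for Shc1 and from 0.858 to 2.42 for Shc2. The kinase gene Src rose from 1.56 to 2.68 FPKM over the P1 hearts to 3.24 to 6.08 over the P7 hearts, by 0.94 on the log2 scale (limma adjusted p = 0.0334). Grb2, the adaptor that links receptors to RAS, had a log2 fold change of 0.73 (limma adjusted p = 0.0893) and Crk, another adaptor, of -0.04.

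In the PI3K and AKT arm 3 of 13 genes were called. Akt2 rose from 15.8 to 26.3 FPKM over the P1 hearts to 33.9 to 51.5 over the P7 hearts, by 1.01 on the log2 scale (SE 0.22, limma adjusted p = 0.0263). Pik3r2, a regulatory subunit of PI3K, rose by 1.18 (limma adjusted p = 0.0428) and Gsk3a, a kinase that AKT inhibits, by 0.79 (limma adjusted p = 0.0348). Akt1 had 31.5 to 90.6 FPKM at P1 and 103 to 153 at P7, a log2 fold change of 1.09 that missed the threshold (limma adjusted p = 0.0538) and passed it under median-ratio scaling.

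In the RAF, MEK and ERK arm 2 of 11 genes were called. Map2k2 (MEK) rose from 11.4 to 28.6 FPKM over the P1 hearts to 37.7 to 60.0 over the P7 hearts, by 1.14 on the log2 scale (SE 0.26, limma adjusted p = 0.0352). Mapk3 (ERK) rose from 8.46 to 19.8 FPKM to 26.6 to 40.4, by 1.29 (SE 0.25, limma adjusted p = 0.0202). GC content was 60.4% for Map2k2 and 57.6% for Mapk3. Araf and Elk1 had log2 fold changes of 0.39 and 0.09 and were not called.

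Of 15 genes that restrain or degrade the receptors, 1 was called. Ptpn18, a phosphatase known to act on ERBB2, rose from 2.24 to 2.83 FPKM over the P1 hearts to 4.18 to 5.20 over the P7 hearts, by 0.73 on the log2 scale (SE 0.17, limma adjusted p = 0.0354). It lost its call under median-ratio scaling, as did Rhbdf1, Shc1, Gsk3a and Junb of the other lists, and unlike them it kept its call after GC correction. The ubiquitin ligase genes Nedd4 and Itch and the phosphatase gene Ptpn12 had log2 fold changes of -0.19, -0.01 and 0.05.

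Of 10 tested feedback inhibitors of ERK signaling, 1 was called. Spry1 (Sprouty) rose from 8.54 to 14.5 FPKM over the P1 hearts to 22.6 to 30.3 over the P7 hearts, by 1.14 on the log2 scale (SE 0.20, limma adjusted p = 0.0148). Spry2, Spred1 and Rasa1 had log2 fold changes of 0.53, 0.05 and 0.18 and were not called.

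Of 13 tested early response genes, whose transcription rises within minutes of growth factor signals, 3 were called. Jun rose from 7.41 to 13.2 FPKM over the P1 hearts to 23.3 to 37.0 over the P7 hearts, by 1.51 on the log2 scale (SE 0.21, limma adjusted p = 0.00615), the largest change of all pathway genes tested. Fosl1 rose by 1.03 (limma adjusted p = 0.0220) and Junb by 0.87 (limma adjusted p = 0.0431). Fosl2, Etv1 and Ier3 had log2 fold changes of 0.68, 0.39 and 0.33 and were not called. Fosl1 is listed at 2 loci, of which the more abundant was used.

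**Figure D5:**
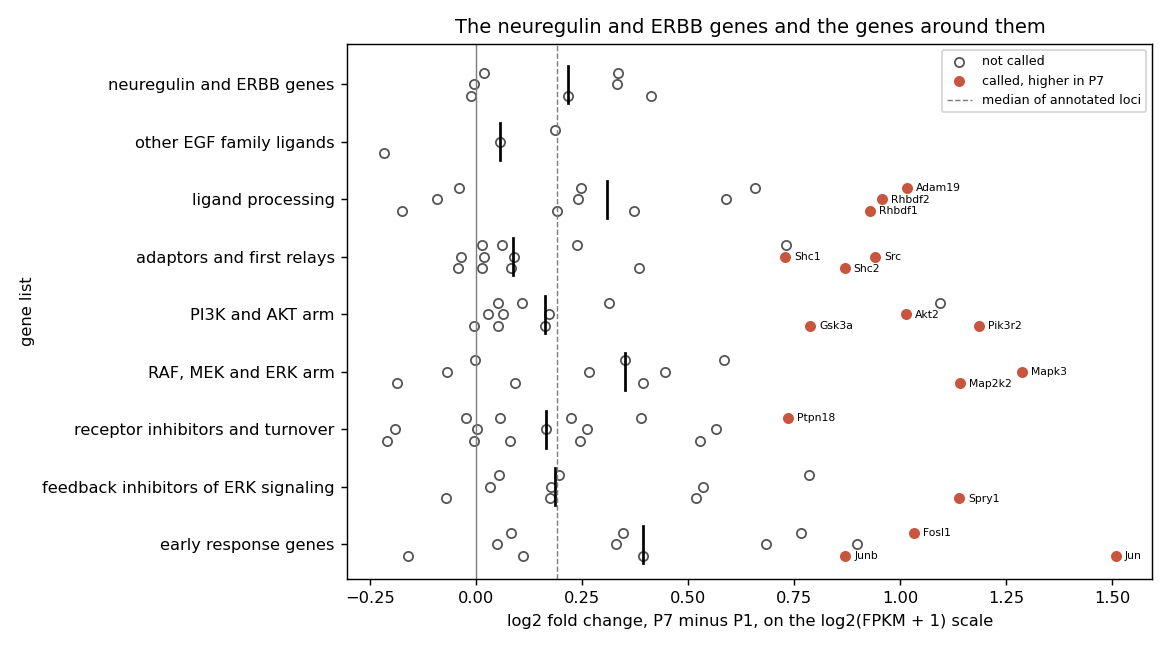
Log2 fold change of P7 over P1 (horizontal axis, on the log2(FPKM + 1) scale) of each tested gene in 9 lists, with 1 point per gene, filled where limma called it, a short bar at the list's median and a dashed line at the median of the annotated loci. No receptor or ligand of the 8 is filled, while 16 genes of the other lists are, all to the right of 0.

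Over the 8 hearts, the level of each gene was compared with that of 10342 annotated loci by Pearson's r on the log2(FPKM + 1) scale, as a description, since the hearts share differences of scale and base composition and 8 points are few. Nrg1 was most like Pde1a (r = 0.973) and Zfp334 (r = 0.971). Nrg2 was most like Irf2bp2 (r = 0.968) and Nr2f2 (r = 0.966), and Nrg4 most like Trim59 (r = 0.963) and D6Wsu163e (r = 0.954). Erbb2 was most like Leprel4 (r = 0.990) and Nrbp2 (r = 0.989), and Erbb3 most like Mfsd4 (r = 0.995) and 1700020O03Rik (r = 0.991). Erbb4 was most like the insulin receptor gene Insr (r = 0.980) and Dnm3os (r = 0.979), Egfr most like Amigo1 (r = 0.984) and Sesn3 (r = 0.981), and Hbegf most like Akip1 (r = 0.961) and Tmem229b (r = 0.954).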

How the data were processed

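RNA was isolated from single hearts, depleted of ribosomal RNA and sequenced in pairs of reads on an Illumina HiSeq after library preparation with a ScriptSeq v2 kit. The values deposited by the authors are FPKM per locus, made by their provider from reads aligned to GRCm38 with Ensembl annotation. The aligner, its version and the use of strand are not given in the sources used here. The files hold no counts. Steps between their low values gave a rough relative depth of 0.612 to 1 over the hearts. The last line of each file, without a locus name, was dropped, and locus starts, which count from 0, were raised by 1.

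The hearts come from separate mice, grouped by the stage in their titles. Log2(FPKM + 1) of the 43172 loci that reached 1 FPKM in any of the 8 hearts was fitted with limma 3.58.1 in R 4.3.3 (lmFit, then eBayes with trend), without covariates, which understates changes of weakly expressed loci. The adjusted p was set at 0.05 and the ratio of means at 1.5, thresholds named in the study's methods. Ratios within a heart used a pseudocount of 0.1. The genes and lists were chosen with earlier results of these data known. Named are the 8 genes, each list's called genes with up to 3 others of highest mean FPKM, and for each of the 8 genes the 2 loci of highest correlation, among those with a symbol of their own and at least 1 FPKM in every heart. Hras and Adgre1 were not analysed here, and some genes that this rule names are not reported here.

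GC correction subtracted from each heart a lowess trend (span 0.3) on the GC content of the longest GENCODE M21 transcript, known for 85.9% of annotated tested loci. It was planned for the fits and added for the ratios after the data were seen. Further alternatives were another pseudocount, other filters, median-ratio and quantile scaling, the replicate number as a block, sample weights, eBayes without trend, adjusted p alone, sums over loci of a symbol, and each heart left out. On simulated data 189 of 200 loci changed 4-fold were recovered among 33216, with 14 false calls. The changed loci were drawn only from annotated loci with a higher mean level. Recovery of smaller changes or of weakly expressed genes was not simulated. With a simulated GC trend, 719 of 33253 loci were called, and 0 after correction.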

Additional observations from a re-analysis of the deposited data

Results flagged for a closer look

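Among the 56 sets of 4 hearts of a stage formed by the 8 genes, the ratios and the marker lists, 3 held a heart whose distance from the others exceeded Dixon's 95% critical value of 0.829 for 4 samples, and 2.8 would be expected since chance exceeds it in about 1 in 20. Nrg1 in P1 replicate 4 was 5.58 FPKM against 2.41 to 2.94 in the other P1 hearts, a gap of 0.832 of the P1 range. The log2 ratio of Nrg1 to Erbb2 in P1 replicate 1 was -0.84 against -0.58 to -0.53 in the others, a gap of 0.856 of the range. The log2 ratio of Hbegf to Egfr in P1 replicate 3 was 1.97 against 1.35 to 1.43 in the others, a gap of 0.875 of the range.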

How the results depend on the processing

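The count of the 8 genes called was 0 under all 20 alternatives. Erbb2, Erbb3, Egfr and Hbegf had a higher mean in P7 under each alternative in which they were tested, whereas Erbb4 (-0.26 to 0.28), Nrg1 (-0.19 to 0.24) and Nrg4 (-0.10 to 0.24) changed sign on the log2 scale. The median log2 fold change of annotated loci was 0.19 as deposited, 0.00 under median-ratio scaling and 0.09 under quantile normalization. The count of pathway genes called was 16 and became 5 without a filter, 7 with eBayes without trend, 2 with GC correction and 1 to 24 with 1 heart left out. With the replicate number as a block it was 10, and 1 with GC correction and the replicate block together. Deviations of equally numbered hearts from their stage means had a mean correlation of -0.031 (range -0.28 to 0.22), beside 0.010 for other pairs. These few pairs showed no pairing by number. They cannot exclude one, since deviations taken from stage means hold the average correlation near 0. After GC correction with a pseudocount of 1, chosen after seeing the data, the log2 difference of Nrg1 to Erbb2 was 0.202 instead of -0.486, that of Nrg1 to the endothelial markers -0.297 and that of Egfr to the fibroblast markers -0.326, and the cause was not tested. The differences of Erbb2 to Erbb4, Erbb3 to Erbb2, Nrg1 to Erbb4, Nrg4 to Nrg1 and both receptors over the cardiomyocyte markers, none past the threshold, also changed sign. Leaving out 1 heart, those of Nrg1 to Erbb2, Nrg1 to the endothelial markers and Egfr to the fibroblast markers kept their sign, the last falling to -0.218 without P1 replicate 2, but 3 hearts against 4 cannot give an exact p below 0.0571. Nrg2 was tested only without a filter, and Erbb3 and Nrg4 were not tested when every heart had to reach 1 FPKM.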
